A study of Mus musculus with 4 samples.

Results

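The MHC class I pathway was followed through 10 genes in 4 populations of mouse CD4+ CD8- thymocytes. They are the class I heavy chain genes H2-K1, H2-D1, H2-Q7 and H2-M3, the light chain gene B2m, the peptide transporter genes Tap1 and Tap2, the loading factor gene Tapbp, and the immunoproteasome genes Psmb8 and Psmb9. They were chosen by name, and their probe sets by the gene symbol of the platform annotation. Of the 10 genes, 9 had a probe set of their own, out of 18193 genes with one, and those 9 were the ones counted. The 9 genes had 26 probe sets, of which 18 were above background on at least 1 array. H2-Q7 was listed only on a probe set that it shares with H2-Q9. The main probe set of a gene is the one whose mean over the 4 arrays was highest.

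RNA was measured on Affymetrix mouse 430 2.0 arrays, 1 array per population, all from female mice of 6 to 8 weeks. Foxp3 encodes the transcription factor of regulatory T cells, and every mouse carried a GFP allele of it. Foxp3-null cells are the GFP+ cells of Foxp3(gfpko/wt) mice, which hold a knockout allele marked with GFP beside a wild-type allele. Foxp3 lies on the X chromosome, so GFP+ cells of such females use the knockout allele, and regulatory T cells from the wild-type allele are present in the same mice. Foxp3-fusion cells are the GFP+ cells of Foxp3(gfp/gfp) mice, whose GFP-Foxp3 fusion protein marks regulatory T cells. GFP- CD25+ cells and GFP- CD25- cells came from Foxp3(gfp/gfp) mice too. The backcross from 129/Sv to C57BL/6 was 2 generations long for the Foxp3-null array and 4 to 6 for the other 3 arrays. Allele, mice and array therefore cannot be told apart in any comparison with Foxp3-null cells. The labels do not say how many mice were pooled. The sort used magnetic beads followed by fluorescence. Foxp3 itself read 7.27 log2 in Foxp3-null cells, 8.82 in Foxp3-fusion cells, 2.88 in GFP- CD25+ cells and 2.76 in GFP- CD25- cells, which fits the sort on GFP but says nothing of the protein. Il2ra, the gene of CD25, read 9.11, 10.35, 7.85 and 3.62 log2 in that order.

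With 1 array per group there is no replicate spread, no test and no error for any value below, and the number of arrays limits the precision. Signals are log2 values after quantile normalization of the 4 arrays, unless the deposited scale is named. Background was set at 4.84 log2, from genes of tissues such as liver, pancreas and heart that thymocytes are not known to use, and is called the floor. A lower value was set to it, and a fold against it is written "at least". A gene was counted from 2-fold on. In bulk cells, fewer cells with a transcript and less transcript per cell cannot be told apart.

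MHC class I molecules show peptides from inside the cell to CD8 T cells and to receptors of natural killer cells. Proteins are cut by the proteasome, whose catalytic subunits can be replaced by immunoproteasome subunits, and the peptides are carried into the endoplasmic reticulum by the TAP1 and TAP2 transporter. Tapasin, made from Tapbp, holds empty class I molecules at that transporter until a peptide fits. In the thymus, class I molecules also take part in selection, and thymocytes are known to gain class I at the surface as they mature. Most of these genes respond to interferon, through NLRC5 with the RFX complex, interferon regulatory factors and NF-kappaB.

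Of the 10 genes, 9 lie on mouse chromosome 17, in the major histocompatibility complex, and B2m lies on chromosome 2. Psmb9, Tap1, Psmb8 and Tap2 follow each other on the chromosome with no other annotated gene between them (RefSeq, assembly GRCm38.p6). Promoter sequences of RefSeq, build GRCm38.p6, were matched for 9 genes; Tap2 was not matched. The stretches of the heavy chain genes and B2m are shown because they share an arrangement of sites. Each line runs 5′ to 3′ on the gene's strand. Capitals mark the NF-kappaB consensus, TGACG, the core of the cyclic AMP response element, which is known from the X2 box of MHC promoters, and ATTGG or CCAAT, the box of nuclear factor Y on either strand.
H2-K1: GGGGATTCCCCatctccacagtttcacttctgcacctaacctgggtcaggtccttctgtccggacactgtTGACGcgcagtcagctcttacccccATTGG
H2-D1: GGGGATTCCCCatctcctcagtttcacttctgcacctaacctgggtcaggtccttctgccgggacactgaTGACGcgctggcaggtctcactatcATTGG
H2-Q7: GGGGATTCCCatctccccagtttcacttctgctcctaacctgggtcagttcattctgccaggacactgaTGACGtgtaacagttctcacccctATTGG
H2-M3: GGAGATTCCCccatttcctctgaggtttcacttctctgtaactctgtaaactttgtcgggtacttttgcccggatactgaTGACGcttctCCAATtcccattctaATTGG
B2m: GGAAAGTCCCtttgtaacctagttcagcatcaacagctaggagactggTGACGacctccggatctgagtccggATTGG

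The H2-K1 stretch is chr17:34000359-34000458 on the minus strand, and the others are on the plus strand. They are chr17:35262923-35263022 for H2-D1, chr17:35439022-35439119 for H2-Q7, chr17:37270108-37270217 for H2-M3 and chr2:122147561-122147638 for B2m. Counted from the gene start, they begin at base -111 in H2-K1, -171 in H2-D1, -133 in H2-Q7, -126 in H2-M3 and -126 in B2m. The annotated span of H2-K1 reaches further upstream than the start used here. In 4 of these 5 genes the ATTGG began 25 bases after the start of TGACG, and in H2-Q7 it began 24 bases after it. The 30-base pattern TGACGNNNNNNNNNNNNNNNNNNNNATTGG was in 4 of the 9 promoter windows and in 0.0962% of all 27025 promoters of the table, which were read over 300 bases each. This pattern was written down after the sequences had been seen.

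TGACG alone was in 7 of the 9 windows and in 21.0% of all promoters, and CCAAT or its complement was in 8 of 9 and in 37.9%. The NF-kappaB consensus was in 5 of 9 and in 8.18%, and all 5 are heavy chain genes or B2m. In H2-K1 and in H2-D1 it matched at 2 overlapping positions, which the 11 capitals cover. In H2-M3 a further box of nuclear factor Y begins at base -129, outside the printed stretch, and overlaps the NF-kappaB match. The core of the interferon-stimulated response element, GAAA, any 2 bases and GAAA, was in 1 of 9, B2m, and in 3.49% of promoters. Only these exact letters were counted, so a gene without a match can still hold a looser form of the element. The letters tttcacttct, printed above for H2-K1, H2-D1, H2-Q7 and H2-M3, are close to its complement and were not counted. The gamma-activated site TTCNNNGAA was in 2 of 9, Psmb8 and H2-M3, and in 8.47%. Both strands were searched, and a match is a description of letters, not of a bound site.

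**Figure D1:**
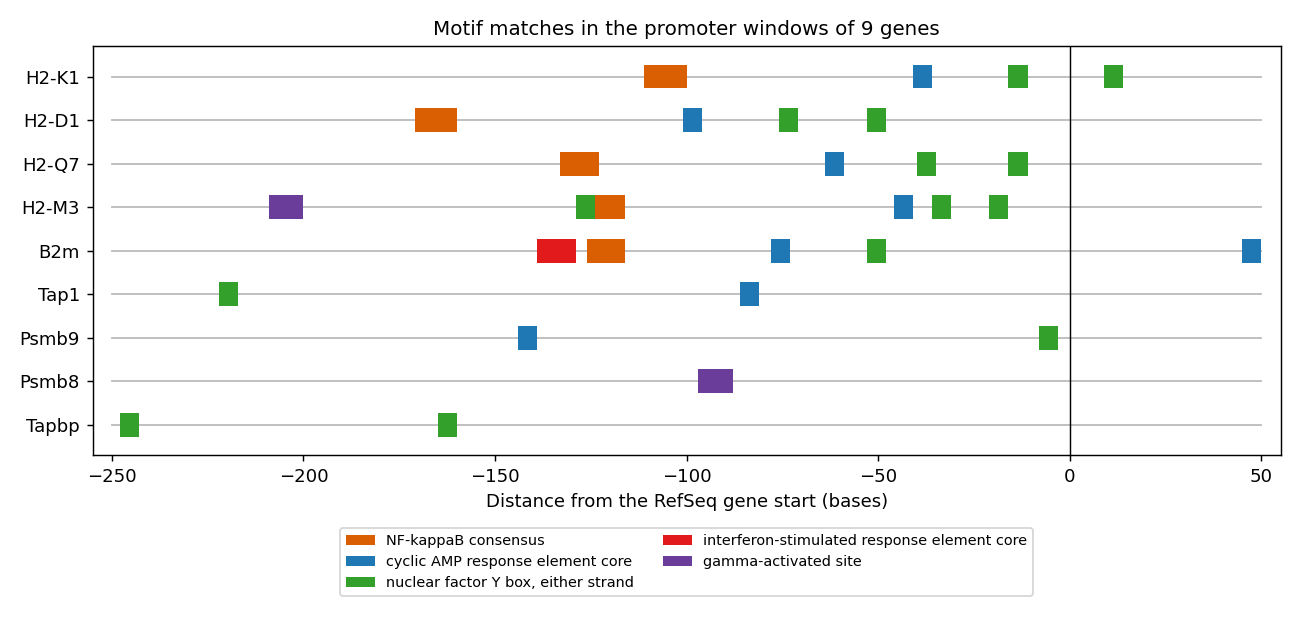
Positions of 5 motifs in the promoter windows of 9 genes, with the distance from the RefSeq gene start in bases on the horizontal axis and a row for each gene. The heavy chain genes and B2m show an NF-kappaB match, then the cyclic AMP response element core, then a nuclear factor Y box; the core was also in the windows of Tap1 and Psmb9, where it is the same site.

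Tap1 and Psmb9 are read in opposite directions from a shared stretch of 225 bases. It is shown because both genes were measured and lie on either side of it, chr17:34187331-34187555, on the strand of Tap1, with TGACG and CCAAT in capitals.
Tap1 and Psmb9: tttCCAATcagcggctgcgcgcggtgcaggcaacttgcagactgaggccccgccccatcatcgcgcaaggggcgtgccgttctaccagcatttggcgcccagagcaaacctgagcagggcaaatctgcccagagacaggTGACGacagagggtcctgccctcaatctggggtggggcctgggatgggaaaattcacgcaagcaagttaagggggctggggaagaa

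All 9 measured genes had their highest signal on the Foxp3-fusion array and their lowest on the GFP- CD25+ array. Over the 7488 genes above the floor on at least 1 array, 25.9% were highest on the Foxp3-fusion array, 19.6% were lowest on the GFP- CD25+ array, and 9.52% met both conditions. On the deposited scale the same held for 9 of 9 genes, against 47.4%, 26.4% and 18.7% of genes. Since the arrays have no replicates, no neighbours in this order can be called different or alike.

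The arrays themselves differed in measures of RNA or amplification quality. The gap between the 3' and 5' control probe sets of beta-actin, in which a larger gap means less signal from the 5' end, was 7.10 log2 on the Foxp3-null array, 5.02 on the Foxp3-fusion array, 9.29 on the GFP- CD25+ array and 8.37 on the GFP- CD25- array. For Gapdh the gaps were 4.93, 4.60, 6.51 and 6.56 log2 in that order, smallest on the Foxp3-fusion array too but largest on the GFP- CD25- array. The array with the smallest actin gap thus had the highest signal of every measured class I pathway gene, and the array with the largest had the lowest. The part of these gaps in the results below was not tested.

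**Figure D2:**
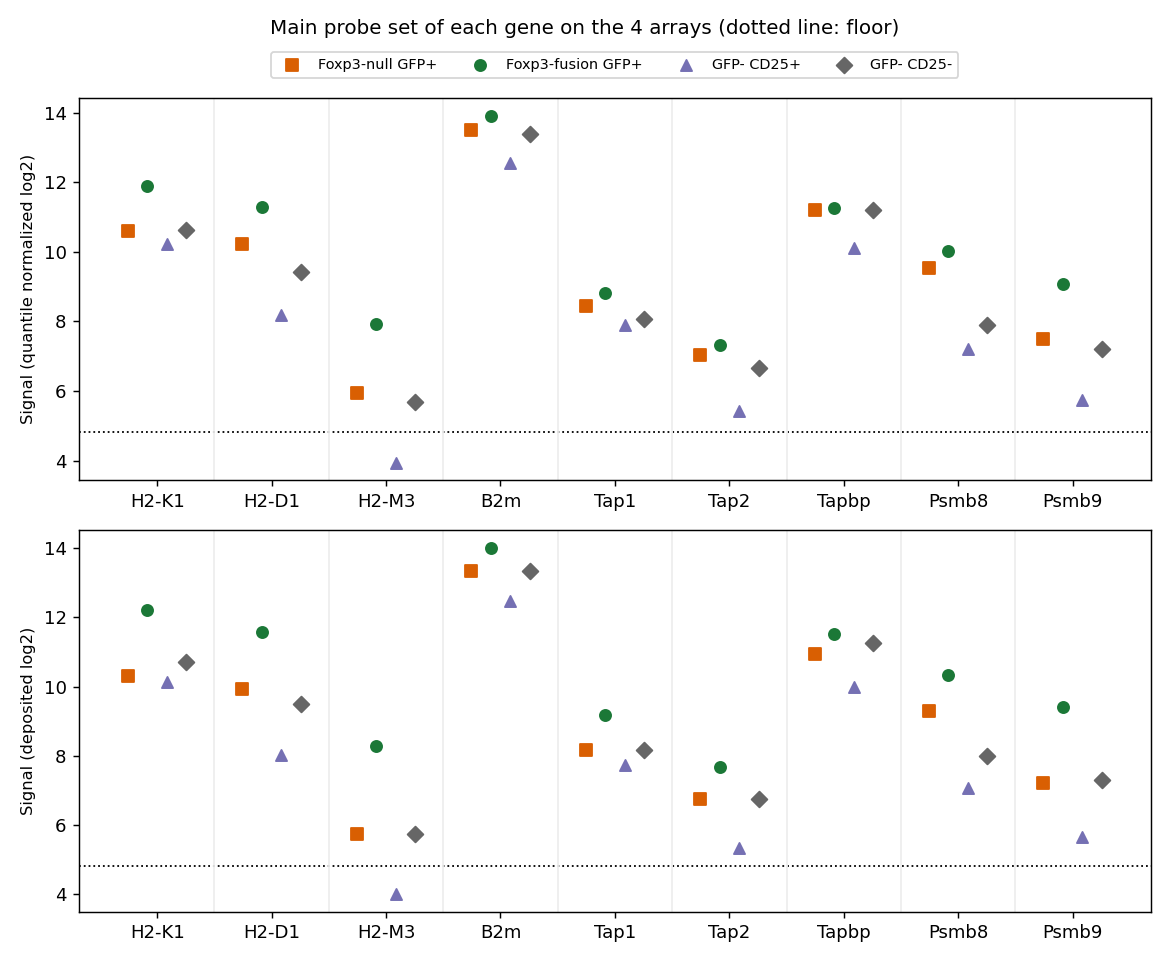
Log2 signal of the main probe set of 9 genes on the 4 arrays, 1 point per array, after quantile normalization (upper panel) and as deposited (lower panel), with the floor as a dotted line. The Foxp3-fusion point is the highest and the GFP- CD25+ point the lowest for each gene, and only H2-M3 in GFP- CD25+ cells lies under the floor.

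H2-K1 and H2-D1 encode the classical class I heavy chains. H2-K1 read 10.59 log2 in Foxp3-null cells, 11.91 in Foxp3-fusion cells, 10.24 in GFP- CD25+ cells and 10.63 in GFP- CD25- cells. On this main probe set Foxp3-fusion cells stood apart, and the other 3 populations lay within 0.39 log2 of each other. On another H2-K1 probe set Foxp3-null cells exceeded GFP- CD25+ cells by 1.47 log2. H2-D1 read 10.22, 11.30, 8.19 and 9.42 log2 in the same order. Here all 4 populations were spaced out, and Foxp3-fusion cells exceeded GFP- CD25+ cells by 8.63-fold.

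H2-M3 encodes a class I molecule that presents peptides beginning with N-formylmethionine. It read 5.96 log2 in Foxp3-null cells, 7.92 in Foxp3-fusion cells, 3.95 in GFP- CD25+ cells, which is under the floor, and 5.67 in GFP- CD25- cells. It was 3.89-fold lower in Foxp3-null than in Foxp3-fusion cells and higher in Foxp3-fusion than in GFP- CD25+ cells by at least 8.45-fold. The differences of H2-M3 from GFP- CD25+ cells rest on the floor: with a floor 1 log2 unit higher, Foxp3-null over GFP- CD25+ cells was 0.12 log2, against 1.12, and with no floor it was 2.01.

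B2m encodes beta-2-microglobulin, the light chain that every classical class I molecule needs. It read 13.50 log2 in Foxp3-null cells, 13.91 in Foxp3-fusion cells, 12.54 in GFP- CD25+ cells and 13.39 in GFP- CD25- cells. Only the GFP- CD25+ value stood clearly below the rest. A second B2m probe set gave wider steps at 11.90, 12.76, 9.94 and 11.10 log2 in that order. The order of the arrays was the same on both.

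H2-Q7 could not be given a value of its own. H2-Q7 and H2-Q9 are known to encode the Qa-2 antigen, a surface marker of mature single-positive thymocytes. The probe set listed for both read 12.03 log2 in Foxp3-null cells, 13.34 in Foxp3-fusion cells, 12.52 in GFP- CD25+ cells and 12.36 in GFP- CD25- cells. It was highest in Foxp3-fusion cells, like the 9 genes, but lowest in Foxp3-null cells, unlike them. Qa-2 and neighbouring genes differ between mouse strains, and the backcross of the Foxp3-null mice was shorter, so allele and strain cannot be told apart there.

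Tap1 and Tap2 encode the subunits of the peptide transporter. Tap1 read 8.43 log2 in Foxp3-null cells, 8.82 in Foxp3-fusion cells, 7.90 in GFP- CD25+ cells and 8.08 in GFP- CD25- cells, a span of 0.92 log2 that was the narrowest of the 9 genes. Tap2 read 7.03, 7.32, 5.43 and 6.66 log2 in that order, and was set apart by its low value in GFP- CD25+ cells. Tapbp read 11.21, 11.26, 10.11 and 11.21 log2, so that 3 populations were within 0.05 log2 and GFP- CD25+ cells lay below them.

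Psmb8 and Psmb9 encode the immunoproteasome subunits also called LMP7 and LMP2. Psmb8 read 9.54 log2 in Foxp3-null cells, 10.03 in Foxp3-fusion cells, 7.22 in GFP- CD25+ cells and 7.91 in GFP- CD25- cells. Both GFP+ populations lay well above both GFP- populations for this gene. Psmb9 read 7.50, 9.07, 5.75 and 7.20 log2 in that order. It set Foxp3-fusion cells alone on top, and its span of 3.32 log2 between Foxp3-fusion and GFP- CD25+ cells was the largest among the genes above the floor on every array.

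The question of Foxp3-fusion against GFP- CD25- cells is how regulatory T cells differ from other CD4 thymocytes of the same mice. Past 2-fold, 5 of the 9 genes were higher in Foxp3-fusion cells and 0 lower, against 10.5% of all 6978 measured genes higher and 5.8% lower. H2-M3 was 4.74-fold higher, Psmb8 4.34-fold, H2-D1 3.68-fold, Psmb9 3.66-fold and H2-K1 2.42-fold. Tap1 was 1.67-fold higher, Tap2 1.57-fold and B2m 1.44-fold, all under the threshold, and Tapbp was 1.03-fold higher. On the deposited scale 6 of the 9 genes passed 2-fold upward, with Tap1 at 2.02-fold added, beside 15.6% of all genes upward and 3.79% downward. The second probe set of B2m was 1.66 log2 higher in Foxp3-fusion cells, and that of Psmb8 0.14. The median of the 9 genes was 1.28 log2 and that of all measured genes was -0.04.

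The pair of Foxp3-null and GFP- CD25- cells sets cells that use the Foxp3 locus without its protein beside other CD4 thymocytes. The 2 arrays also differ by mice and backcross, so a difference cannot be assigned to use of the locus. Past 2-fold, 1 of the 9 genes was higher in Foxp3-null cells, Psmb8 at 3.10-fold, and 0 were lower, against 10.6% of 7183 genes higher and 7.63% lower. A share of 1 in 9 is near that background. H2-D1 was 1.74-fold higher, and the other 7 genes lay between -0.04 and 0.37 log2. The median was 0.30 log2 for the 9 genes and 0.22 for all genes. On the deposited scale both medians were close to 0, at -0.01 and -0.02, and 3 of the 9 genes were above 0 where 7 had been.

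Foxp3-null cells were then set against Foxp3-fusion cells. Both use the Foxp3 locus, and they differ by Foxp3 protein, but also by mice and backcross. All 9 genes were lower in Foxp3-null cells, 4 of them past 2-fold, and 0 were higher, against 9.15% of 7302 genes lower and 8.55% higher. Those past 2-fold were H2-M3 at 3.89-fold lower, Psmb9 at 2.97-fold, H2-K1 at 2.49-fold and H2-D1 at 2.11-fold. Psmb8 was 1.40-fold lower, B2m 1.33-fold, Tap1 1.31-fold, Tap2 1.22-fold and Tapbp 1.04-fold. The 2 immunoproteasome genes therefore gave different steps between the GFP+ populations, -0.49 log2 for Psmb8 and -1.57 log2 for Psmb9.

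The median in that comparison was -0.49 log2 for the 9 genes and 0.16 for all genes. The scale matters here, because the Foxp3-fusion array had the highest 90th percentile of deposited signal, 8.16 log2, and the Foxp3-null array the lowest, 7.54. On the deposited scale 6 of the 9 genes were past 2-fold lower, against 20.9% of genes, with Psmb8 at 2.06-fold and Tap1 at 2.02-fold added and Psmb9 at 4.64-fold, and the medians were -1.04 and -0.32 log2. Relative to the median of all genes, the median of the 9 genes was lower by a similar amount on both scales, -0.65 log2 after quantile normalization and -0.72 as deposited.

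GFP- CD25+ and GFP- CD25- cells differ by the sort on CD25. All 9 genes were lower in GFP- CD25+ cells, 4 of them past 2-fold, and 0 were higher, against 4.63% of 6962 genes lower and 4.27% higher. Psmb9 was 2.73-fold lower, Tap2 2.35-fold, H2-D1 2.34-fold and Tapbp 2.14-fold. With the median over its probe sets H2-D1 differed by -0.09 log2. That median takes in H2-D1 probe sets under the floor on every array, and it falls on different probe sets in the populations compared. On the H2-D1 probe sets above the floor, the main one first, the differences were -1.23, -0.70, 0.22, -1.79 and -1.44 log2. B2m was 1.80-fold lower and Psmb8 1.61-fold, but on the second Psmb8 probe set GFP- CD25+ cells were 0.03 log2 higher. H2-M3 was at least 1.78-fold lower, a lower bound because its GFP- CD25+ value is under the floor. H2-K1 was 1.31-fold lower and Tap1 1.13-fold. The medians were -0.85 log2 for the 9 genes and 0.11 for all genes.

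The other pairs with the GFP- CD25+ array share its low values. In Foxp3-fusion over GFP- CD25+ cells, 8 of the 9 genes were past 2-fold higher and 0 lower, against 11.8% of 7131 genes higher and 8.37% lower, and Tap1 at 1.89-fold was the exception. The largest was Psmb9 at 9.997-fold. With the median over probe sets H2-D1 was at 1.46 log2, against 3.11, and Psmb8 at 1.46, against 2.81. For H2-D1 that median again takes in probe sets under the floor. Its probe sets above the floor gave 3.11, 2.73, 1.16, 3.10 and 3.25 log2. In Foxp3-null over GFP- CD25+ cells, 6 of 9 were past 2-fold higher and 0 lower, against 8.73% of 7184 genes higher and 7.53% lower. Psmb8 led there at 4.99-fold, followed by H2-D1 at 4.08-fold. The median over probe sets gave H2-D1 0.49 log2, against 2.03, Psmb8 1.55, against 2.32, and H2-K1 1.21, against 0.35. The H2-D1 probe sets above the floor gave 2.03, 1.62, 0.18, 2.22 and 2.11 log2 there. H2-K1 at 1.28-fold, Tap1 at 1.45-fold and B2m at 1.94-fold were under 2-fold. These comparisons share arrays with the ones above and are not separate evidence of an order. On the deposited scale, 9 of 9 genes passed 2-fold upward in Foxp3-fusion over GFP- CD25+ cells, beside 22.5% of all genes upward and 3.06% downward. In Foxp3-null over GFP- CD25+ cells 4 of 9 did, beside 6.37% and 8.61%.

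**Figure D3:**
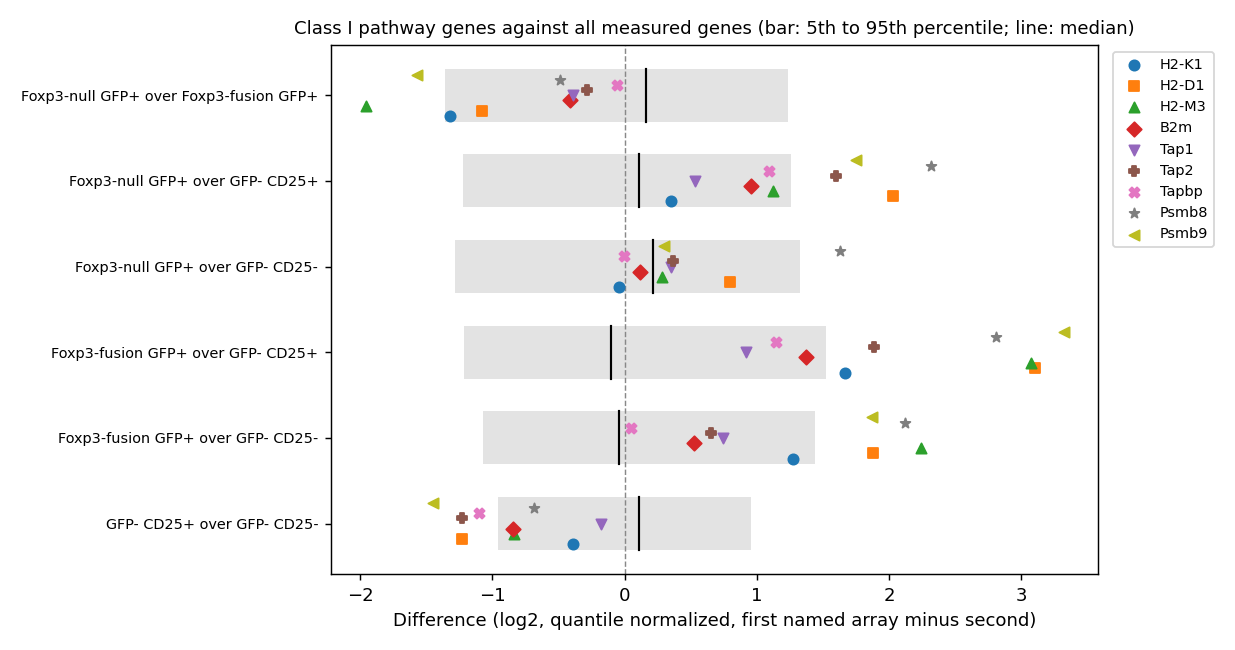
Log2 differences of the 9 genes in the 6 pairs of arrays, 1 symbol per gene, on grey bars that span the 5th to the 95th percentile of all measured genes with their median as a black line. The genes lie to the right of the median in every comparison of Foxp3-fusion with a GFP- array and to the left of it in GFP- CD25+ over GFP- CD25- cells; H2-M3 in GFP- CD25+ cells is a bound.

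Genes with several probe sets above the floor allow a check of each value. H2-K1 had 4 and H2-D1 had 5, and all were highest on the Foxp3-fusion array. The class I heavy chain genes are close relatives. All of these probe sets but 1 of H2-D1 have IDs that mark probes which can match several transcripts, so H2-K1 and H2-D1 signals cannot be fully told apart. That single H2-D1 probe set read 9.56 log2 in Foxp3-null cells, 10.68 in Foxp3-fusion cells, 7.95 in GFP- CD25+ cells and 8.65 in GFP- CD25- cells, the same order as the main one. The probe sets differed in the place of Foxp3-null cells and at the low end. Foxp3-null over GFP- CD25- cells was -0.04 log2 on the main H2-K1 probe set and 0.35 to 0.40 log2 on its others. One probe set of H2-K1 and 1 of H2-D1 were lowest in GFP- CD25- cells, with 6.73 log2 in GFP- CD25+ and 6.69 in GFP- CD25- cells for H2-K1 and 6.11 and 5.90 for H2-D1. That H2-K1 probe set was lowest in GFP- CD25+ cells on the deposited scale.

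Psmb8 is the gene whose probe sets disagreed on the highest array. Its second probe set read 8.25 log2 in Foxp3-null cells, 7.58 in Foxp3-fusion cells, 7.47 in GFP- CD25+ cells and 7.44 in GFP- CD25- cells. This probe set too has an ID that marks probes which can match several transcripts. On it Foxp3-null cells were highest, and Foxp3-fusion cells exceeded GFP- CD25- cells by 0.14 log2, against 2.12 on the main probe set. The high Psmb8 signal in Foxp3-fusion cells therefore rests on 1 of its probe sets, whereas a signal in Foxp3-null cells above both GFP- populations was present on both. Over all 18 probe sets above the floor, 17 were highest in Foxp3-fusion cells and 15 were lowest in GFP- CD25+ cells, and the Psmb8 one was the exception to the first count. Probe sets of a gene share its transcript and are not replicates.

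**Figure D4:**
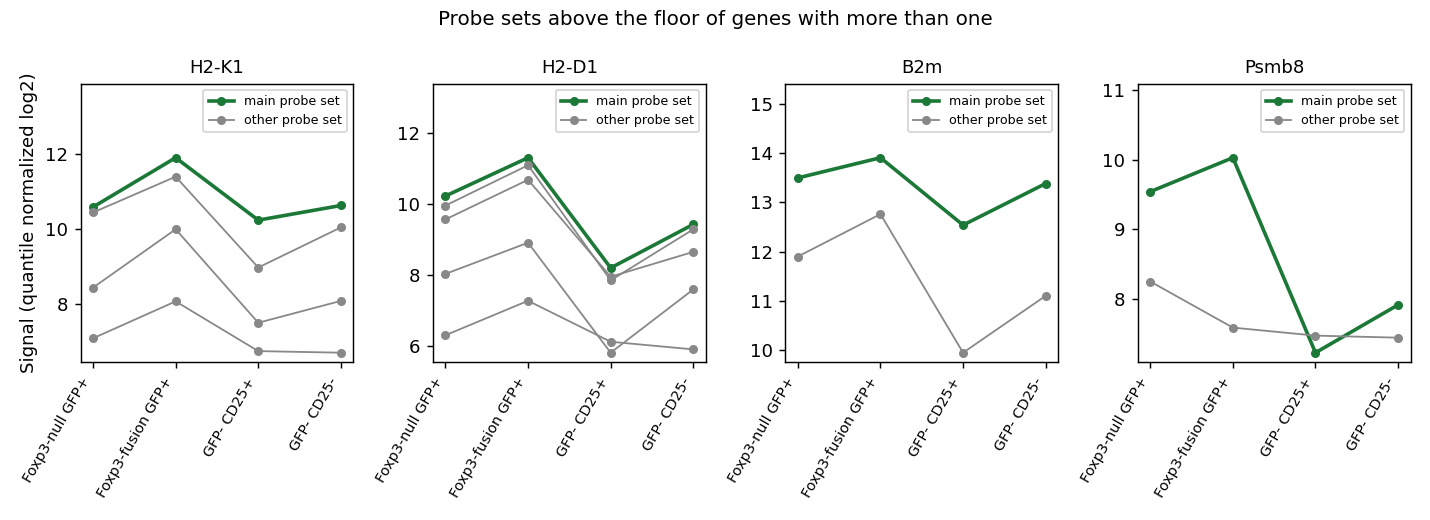
Log2 signal on the 4 arrays for every probe set above the floor of H2-K1, H2-D1, B2m and Psmb8, 1 line per probe set with the main one in green; lines only join values of a probe set, as the arrays have no order. The lines of H2-K1, H2-D1 and B2m peak at Foxp3-fusion cells, and the second line of Psmb8 peaks at Foxp3-null cells.

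The immunoproteasome subunits take the places of constitutive ones, Psmb9 of Psmb6, Psmb10 of Psmb7 and Psmb8 of Psmb5, and the 3 pairs did not run alike. In Foxp3-fusion over GFP- CD25- cells Psmb9 was 1.87 log2 higher, whereas Psmb6 differed by -0.27. Psmb8 was 2.12 log2 higher and its counterpart Psmb5 was also higher, by 1.56. Psmb10 was 0.79 log2 higher and Psmb7 0.83. In GFP- CD25+ over GFP- CD25- cells, Psmb9 was -1.45 log2, Psmb8 -0.69 and Psmb10 -0.35, while Psmb6, Psmb5 and Psmb7 lay at 0.10, -0.05 and 0.04. The second Psmb8 probe set gave 0.03 log2 there. In Foxp3-null over Foxp3-fusion cells Psmb7 was 1.17 log2 higher, and Psmb10 was at -0.05. The Psmb7 call did not hold on the deposited scale, where 0 of the 14 constitutive subunit genes passed 2-fold upward and 5 downward, with a median of -0.68 log2. Of all genes, 2.79% were higher and 20.9% lower on that scale, with a median of -0.32.

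**Figure D5:**
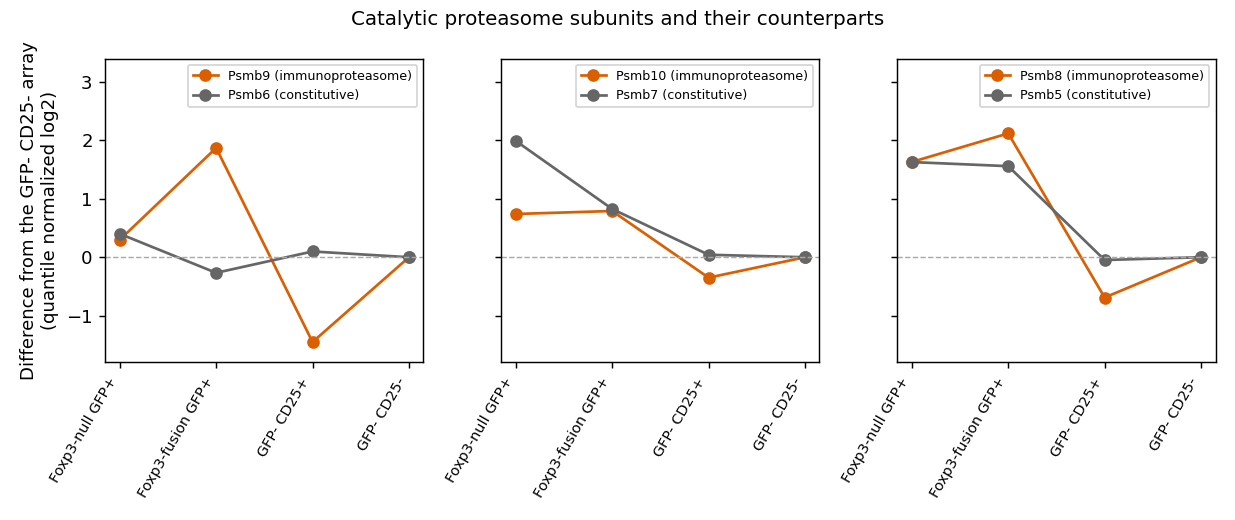
Difference in log2 signal from the GFP- CD25- array for each immunoproteasome subunit gene (orange) and its constitutive counterpart (grey), 1 point per array, with lines joining the values of a gene. Psmb9 and Psmb6 separate in Foxp3-fusion and GFP- CD25+ cells, whereas Psmb8 and Psmb5 are both high in Foxp3-null and Foxp3-fusion cells.

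All 14 genes listed for the constitutive 20S proteasome were above the floor on at least 1 array. In Foxp3-fusion over GFP- CD25- cells, 5 of 14 passed 2-fold upward and 0 downward, beside 10.5% and 5.8% of all measured genes, and their median was 0.63 log2. The 4 largest were Psma7 at 3.82-fold, Psmb5 at 2.94-fold, Psma1 at 2.90-fold and Psmb1 at 2.66-fold. In GFP- CD25+ over GFP- CD25- cells, 1 of 13 passed 2-fold upward, Psmb3 at 2.22-fold, and 0 downward, beside 4.27% and 4.63% of all genes. The median was 0.31 log2, where that of the 9 class I pathway genes was -0.85. That difference between the lists was not tested.

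Of 16 other antigen processing genes, 4 passed 2-fold upward in Foxp3-fusion over GFP- CD25- cells and 0 downward, beside 10.5% and 5.8% of all genes, and the median was 0.44 log2. Erap1, which trims peptides in the endoplasmic reticulum, was 3.54-fold higher. The chaperone gene Canx was 3.14-fold higher, Pdia3, which encodes the ERp57 partner of tapasin, 2.45-fold, and Psme1, a proteasome activator subunit, 2.40-fold. In Foxp3-null over GFP- CD25- cells Psme1 was 3.21-fold and Blmh, an aminopeptidase gene, 2.65-fold higher, 2 of 15, and 0 were lower, beside 10.6% and 7.63% of all genes. In Foxp3-null over Foxp3-fusion cells 0 of 16 were higher and 1, Erap1, was 2.81-fold lower, beside 8.55% and 9.15%. On the deposited scale 0 were higher and 3 lower in that pair, beside 2.79% and 20.9% of all genes. In GFP- CD25+ over GFP- CD25- cells 0 of 15 passed 2-fold in either direction, beside 4.27% upward and 4.63% downward, and the median was 0.15.

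Other heavy chain and class I-like genes were mostly dim, and 5 of the 13 with a probe set were above the floor on any array. Cd1d1, which encodes the lipid-presenting CD1d, read 9.15 log2 in Foxp3-null cells, 9.93 in Foxp3-fusion cells, 10.78 in GFP- CD25+ cells and 10.76 in GFP- CD25- cells. Both GFP+ populations were lower than both GFP- populations for it. On the main probe sets both GFP+ populations were higher for H2-D1, and for H2-K1 only Foxp3-fusion cells were above both GFP- populations. On the other H2-K1 probe sets Foxp3-null cells were above both too, by at most 0.40 log2 over GFP- CD25- cells. As deposited, that step was at most 0.02 log2. H2-Q5 was above the floor on the Foxp3-fusion array alone, at 6.00 log2. H2-Bl read 7.19, 6.15, 6.62 and 6.38 log2 in the order above and was highest in Foxp3-null cells.

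Genes that control class I transcription were mixed. Nlrc5, the class I transactivator, read 9.30 log2 in Foxp3-null cells, 9.29 in Foxp3-fusion cells, 9.31 in GFP- CD25+ cells and 9.65 in GFP- CD25- cells. Of 19 such genes, 2 passed 2-fold upward in Foxp3-fusion over GFP- CD25- cells and 0 downward, with a median of -0.03 log2, and the upward share is that of all genes, 10.5% (5.8% downward). These 2 were Ifngr1, a chain of the interferon gamma receptor, at 6.23-fold, and Rfx5, a subunit of the RFX complex, at 3.63-fold. The other receptor chain gene, Ifngr2, was lower in Foxp3-null than in GFP- CD25- cells by at least 8.71-fold, a bound, since it was under the floor in Foxp3-null cells at 4.66 log2. The kinase gene Jak1 read 9.02, 9.79, 7.66 and 9.11 log2 in the order above, and was 2.73-fold lower in GFP- CD25+ than in GFP- CD25- cells.

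Interferon-stimulated genes were compared because they respond to the same signals. In GFP- CD25+ over GFP- CD25- cells 0 of 18 passed 2-fold upward and 2 downward, Oas2 at 2.67-fold and Ifit1 at 2.38-fold lower, beside 4.27% and 4.63% of all genes, and the median was -0.47 log2. In Foxp3-fusion over GFP- CD25- cells 4 were higher and 1 lower, beside 10.5% and 5.8%, and the median was 0.29. The 4 were the GTPase genes Gbp3 at 13.1-fold, Irgm1 at 2.27-fold, Igtp at 2.19-fold and Iigp1 at 2.09-fold, all known as targets of interferon gamma. The lower gene was Oas2, at no less than 4.66-fold, a bound. Gbp2 of the same list differed by 0.13 log2. In Foxp3-null over Foxp3-fusion cells Gbp3 was 6.33-fold and Iigp1 5.01-fold lower, whereas Ifit1, known as a target of type I interferon, was 3.02-fold higher and Xaf1 2.09-fold higher. Neither upward call held on the deposited scale, where 0 of 18 were higher and 5 lower and the median was -0.63 log2, against 0.01. All genes on that scale had 2.79% higher and 20.9% lower, with a median of -0.32.

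Genes of thymocyte maturity are given beside these results because class I is known to increase with it. In GFP- CD25+ over GFP- CD25- cells 0 of 13 genes of mature single-positive thymocytes passed 2-fold upward and 2 downward, beside 4.27% and 4.63% of all genes, and the median was -0.65 log2. They were Il7r at 8.09-fold lower and Gimap6 at 2.50-fold lower. In Foxp3-fusion over GFP- CD25- cells 3 were higher and 2 lower, beside 10.5% and 5.8%, and the median was 0.08. Genes of immature thymocytes had a median of -1.499 in that comparison, with 0 of 8 higher and 5 lower (-0.64 with no floor), and of -0.18 in GFP- CD25+ over GFP- CD25- cells, with 3 of 10 higher and 2 lower. Dntt at 8.28-fold, Arpp21 at no less than 3.05-fold, a bound, and Cd24a at 2.81-fold were the 3 higher. Ccr9 at 4.28-fold and Satb1 at 2.54-fold were the 2 lower. In Foxp3-fusion over GFP- CD25+ cells 6 of 13 mature genes were higher and 0 lower, beside 11.8% and 8.37% of all genes, with a median of 0.55. There 0 of 10 immature genes were higher and 5 lower, with a median of -1.25 (-0.56 with the median over probe sets). In Foxp3-null over GFP- CD25+ cells 4 of 13 mature genes were higher and 0 lower, with a median of 0.62, and 0 of 10 immature genes were higher and 4 lower, with a median of -0.60, beside 8.73% and 7.53%. In Foxp3-null over Foxp3-fusion cells 0 of 13 mature genes were higher and 1 lower, with a median of -0.26, and 2 of 7 immature genes were higher and 0 lower, with a median of 0.85, beside 8.55% and 9.15%. That pair gave, with deposited values, 0 higher and 5 lower mature genes, with a median of -0.91, and 0 higher and 2 lower immature genes, with a median of 0.23. Beside these, 2.79% of all genes were higher and 20.9% lower on that scale, with a median of -0.32. In Foxp3-null over GFP- CD25- cells 1 mature gene was higher and 2 lower, with a median of 0.04, and 0 of 8 immature genes were higher and 5 lower, with a median of -1.17 (-0.58 with no floor), beside 10.6% and 7.63%. The part of maturity in the class I values was not tested.

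The label was checked on T lineage genes, and 12 of 13 were above the floor on every array, Cd4 and the Cd3 genes among them. Zbtb7b, the CD4 lineage factor ThPOK, was under the floor on all arrays, but in GFP- CD25- cells only just, at 4.835 log2 against 4.8395. On the deposited scale it passed the floor in those cells. Markers of other cells that carry much MHC were mostly low. Of 9 B cell markers 8 were under the floor on all arrays, Cd79a and Pax5 among them, and Ms4a1 alone passed it, at 5.63 log2 in Foxp3-null cells and 4.99 in GFP- CD25+ cells. The summed linear signal of that list was 103 in Foxp3-null, 79.3 in Foxp3-fusion, 81.9 in GFP- CD25+ and 73.7 in GFP- CD25- cells. Of 13 markers of dendritic cells and macrophages 8 were under the floor on all arrays, including Itgax and Lyz2. Cd80 read 6.00, 5.22, 5.62 and 5.42 log2 in the order above, and Cd86 5.11, 6.12, 5.37 and 4.43. Csf1r and Adgre1 passed the floor in Foxp3-null cells alone, at 5.50 and 5.21 log2. Ctss, which was in that list, read 11.86, 12.47, 11.20 and 11.46 log2 in the order above. Like the class I genes, it was highest in Foxp3-fusion and lowest in GFP- CD25+ cells. Of 10 thymic epithelium markers 8 were under the floor on all arrays. The others were Epcam, at 7.28, 6.49, 7.13 and 6.85 log2 in that order, and Ly75, at 6.50, 6.46, 6.16 and 6.35. Of 10 markers of CD8 T and natural killer cells 7 were under the floor on all arrays, Cd8a among them. Nkg7 read 6.25, 5.88, 2.95 and 4.95 log2 in that order, and Eomes 6.06, 5.40, 6.19 and 4.74. Klrd1 passed the floor in GFP- CD25- cells alone, at 6.32 log2. Of 9 MHC class II genes 5 were under the floor on all arrays, H2-Ab1, H2-Eb1 and Cd74 among them. H2-Aa read 6.49, 5.16, 6.60 and 6.68 log2 in that order and was lowest in Foxp3-fusion cells. H2-Ob read 7.72, 8.91, 7.04 and 8.14 log2, highest in Foxp3-fusion and lowest in GFP- CD25+ cells like the class I genes. The summed linear signal of the class II list was 394 in Foxp3-null, 609.9 in Foxp3-fusion, 321 in GFP- CD25+ and 469 in GFP- CD25- cells. The summed linear signal of the dendritic cell and macrophage list was 3961 in Foxp3-null cells, 5886 in Foxp3-fusion cells, 2536 in GFP- CD25+ cells and 2980 in GFP- CD25- cells, most of it from Ctss. The part of other cells in the class I values was not tested.

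Over the 4 arrays, 6044 other genes were above the floor everywhere, and those with the profile most like the median profile of the 9 genes were N4bp2l1, Ngrn, Tnpo1, Ctsb and Epsti1. Likeness is the root mean square difference of values centred on their own mean, over 4 arrays, and was 0.08 log2 for N4bp2l1 and 0.11 for Epsti1. The 9 genes themselves lay 0.25 to 0.62 log2 from their median profile, Tap2 nearest and H2-M3 farthest. With so many genes and 4 values each, close neighbours are found for many profiles.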

How the data were processed

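The deposited table gives 1 value per probe set and array. Per the labels' protocols, biotin-labelled cRNA was made with 2 rounds of amplification and hybridised to Affymetrix mouse 430 2.0 arrays. The authors' background correction and normalization are not given in the sources used here; the deposited values were taken as log2 from their range. Groups came from sample titles, 1 array each; the description of the Foxp3-null sample is that of the other mice, and its strain entry differs. Of 45101 probe sets, 64 controls were left out, and 34945 had 1 gene in the platform annotation, 932 several and 9160 none. RefSeq GRCm38.p6 held the gene identifiers of 34741 of the 34945 and gave current symbols.

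The 90th percentiles differed between arrays, so quantile normalization was applied to the log2 values. For the floor, the 90th percentile of 71 probe sets of genes from other tissues was taken on each array, and the highest of the 4 was used (4.84 log2, or 4.80 for deposited values). A gene was measured in a comparison when 1 side reached the floor, and counted from 2-fold on. Named genes are the 10 members, list genes at least 2-fold apart (at most 4 per list, comparison and direction) and the 5 nearest profiles. Genes under 2-fold and marker genes were chosen after their values were seen. Members and lists were chosen with earlier results of these data known. Calculations used Python 3.11.15, numpy 2.4.6 and pandas 2.3.3, and were tested on simulated data. No test of significance was possible with 1 array per group. The alternatives were the deposited scale, median centring, no floor, a floor raised by 1 log2 unit, the median over probe sets, leaving out probe sets with IDs in _x_at or _s_at, and a 1.5-fold threshold.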

Additional observations from a re-analysis of the deposited data

How the results depend on the processing

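The median difference of the class I pathway genes was within 1.5-fold of its reported value in all 36 recalculations, over 6 comparisons and 6 alternatives. It was taken over 8 genes with the median over probe sets, where Tap1 was under the floor on all arrays, and over 8 without _x_at and _s_at probe sets, where H2-K1 has no value. It ranged from -1.04 to -0.45 log2 in Foxp3-null over Foxp3-fusion cells, from 0.96 to 1.60 in Foxp3-null over GFP- CD25+ cells, from -0.01 to 0.38 in Foxp3-null over GFP- CD25- cells, from 1.67 to 2.34 in Foxp3-fusion over GFP- CD25+ cells, from 1.25 to 1.501 in Foxp3-fusion over GFP- CD25- cells and from -1.10 to -0.70 in GFP- CD25+ over GFP- CD25- cells. The sign in Foxp3-null over GFP- CD25- cells was thus not fixed. Counts of genes past the threshold stayed within 1.5 times in 82 of 84 recalculations. The other 2 came from the 1.5-fold threshold, which by its construction takes in smaller differences: 2 genes higher in Foxp3-null over GFP- CD25- cells and 7 lower in GFP- CD25+ over GFP- CD25- cells. The share of all genes past 1.5-fold was not calculated, so these counts have no background to be read against. In each of the 6 comparisons 1 direction had 0 genes past 2-fold. Many of the 84 recalculations therefore set 0 beside 0, and a count of 4 against 6 also stayed within 1.5 times. Differences of single genes moved by less than 1.5-fold in 294 recalculations and by more in 17, with 0 changes of sign among called genes; 9 of the 17 came with the median over probe sets and 5 were H2-M3 under another floor. With the median over probe sets 7 of 9 genes, Tap1 under the floor included in the 9, were highest on the Foxp3-fusion array and 8 lowest on the GFP- CD25+ array, and with median centring 8 of 9 and 9 of 9. No paired analysis was possible because each group has 1 array.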

Other observations

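Some deposited values are exactly equal on 2 arrays. The main Tap1 probe set and 1 H2-K1 probe set have the same deposited value in Foxp3-null and GFP- CD25- cells. Over all probe sets without controls, 5.71% were equal between those arrays, and between 1.63% and 3.06% for the other 5 pairs of arrays.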
